A study of Homo sapiens with 12 samples.

Results

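231BR cells cultured with mouse astrocytes under estradiol were compared with the same cells cultured alone under estradiol, which gives 6 arrays of the 12 in the series. Members were chosen by the treatment label: 3 arrays of estradiol-treated cells with astrocytes and 3 of estradiol-treated cells without them. 231BR is a brain-seeking derivative of the human breast cancer line MDA-MB-231, a mesenchymal line that lacks estrogen receptor alpha. The 231BR cells carried EGFP, and all of these 6 cultures received 10 nM estradiol, the main human estrogen. The EGFP-positive human cells were sorted after 24 h of co-culture. The other 6 arrays, vehicle alone and vehicle with astrocytes with 3 arrays each, entered the fit to estimate the spread of each gene and served for a comparison of the astrocyte effect without the hormone. The title names the question: how estrogen acts on these cells through astrocytes that have its receptor. All 12 arrays are of 1 cell line and were read on human Affymetrix Gene ST arrays, the astrocytes were of mouse origin, and nothing in the labels tells if the arrays of a group came from separate cultures. The p-values therefore measure the spread between these samples, which may be technical.

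Astrocytes are glial cells that feed neurons, take up glutamate and react to injury by secreting cytokines and growth factors. Tumour cells that reach the brain lie among them, exchange soluble factors with them and can couple to them through gap junctions. Inflammatory signalling in tumour cells runs largely through NF-kB, a transcription factor that enters the nucleus when its inhibitor is degraded and that drives genes such as IL6, IL1B and PTGS2.

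The arrays with astrocytes were less alike than those without. On the log2 scale the SD of an array's values was 2.12 to 2.20 in estradiol alone and 2.10, 1.62 and 1.96 on arrays 1, 2 and 3 of estradiol with astrocytes. Array 2 of estradiol with astrocytes correlated across genes at r from 0.558 to 0.674 with the 6 arrays without astrocytes, against 0.964 to 0.977 for array 1 and 0.903 to 0.944 for array 3. Array 2 of vehicle with astrocytes had an SD of 1.82 and r from 0.832 to 0.905 with the arrays without astrocytes. Unless another group is named, array 2 is that of estradiol with astrocytes. A narrower range of signal gives high genes a lower value and low genes a higher one. Results below therefore stand beside a second fit, called SD-adjusted here, whose model also holds each array's own SD. That SD comes from the same values. Under each treatment it was lower on every array with astrocytes than on any array without. For vehicle it was 2.0389 to 2.2184 alone and 1.8176 to 2.0371 with astrocytes. This fit can therefore take up an astrocyte effect as well as a narrower range, and these cannot be told apart. Values without array 2 are given for called genes and medians of lists that are printed, where leaving it out moved them by more than 1.5 times.

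Of 17958 genes, 903 were higher (5.03%) and 1463 lower (8.15%) with astrocytes under estradiol at an adjusted p under 0.05, together 2366 (13.2%). In the SD-adjusted fit the split turned round, with 286 higher (1.59%) and 183 lower (1.02%), together 469 (2.61%), and 52 higher and 163 lower genes were called in the same direction in both fits. The signals of the 3 and 3 arrays did not overlap for 4850 genes that were higher (27%) and 4295 that were lower (23.9%), and each of the 2366 called genes was among them. Most calls lay close to the threshold, with a median adjusted p of 0.0402 over the called genes and 80 genes under 0.03. The count changed when single arrays were left out. It was 3 without estradiol alone replicate 1 or 2 or estradiol with astrocytes replicate 3, and 5 without estradiol alone replicate 3. Leaving out vehicle alone replicate 1, 2 or 3 gave 13, 10 and 1547, and leaving out vehicle with astrocytes replicate 3 gave 1032. It was 416 without estradiol with astrocytes replicate 2 and 9222 without replicate 1 of that group. IL6, PTGS2 and MGC70870 were called whichever array was left out. Since the arrays of the 2366 genes do not overlap, leaving out an array could not turn their direction. In the SD-adjusted fit all 2366 kept it too.

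PTGS2 encodes COX-2, the inducible enzyme that makes prostaglandins, and lies at chr1:186671791-186680423 in GRCh38.p14. Its signal was 7.86, 7.80 and 7.84 on the arrays of estradiol alone and 5.65, 5.21 and 4.95 with astrocytes. All 3 co-culture arrays were lower by more than 2 log2 units than any array of cells alone. The change was −2.56 (SE 0.23, adjusted p = 0.0012), a 5.91-fold fall, and −2.39 in the SD-adjusted fit. Of 27 genes for making, exporting, degrading and sensing prostaglandins, 2 passed (7.41%, against 13.2% of all genes). PTGS2 fell and PTGER1, a prostaglandin E receptor gene, rose by 1.25 (adjusted p = 0.042), or by 0.82 without array 2. ABCC4, which encodes an exporter of prostaglandins, had a change of −1.46 and PLA2G4A, which encodes the phospholipase that frees arachidonic acid, one of −1.11, with adjusted p of 0.0506 and 0.0538. The median of this list was 0.32, and 0.07 in the SD-adjusted fit, against 0.07 and 0.04 over all genes.

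Part of the cytokine genes fell. Of 19 measured, 6 fell and none rose (31.6%, against 13.2% of all genes), and 4 of the 6, IL6, CSF3, IL1B and IL11, also fell in the SD-adjusted fit. IL6, at chr7:22727200-22731998, encodes an inflammatory cytokine that signals through STAT3. It read 6.68, 6.57 and 6.34 alone and 4.47, 4.0 and 4.42 with astrocytes, groups that lay nearly 2 log2 units apart. The change was −2.23 (SE 0.21, adjusted p = 0.0012), or 4.70-fold. IL1B, the gene of the cytokine that starts much of this response, read 8.31, 8.41 and 8.15 alone and 6.45, 4.04 and 5.69 with astrocytes. Its co-culture arrays were all lower but spread over more than 2 log2 units, with array 2 lowest, and the change was −2.89 (SE 0.48, adjusted p = 0.0294). IL1A, its neighbour on chromosome 2, read 5.80, 5.83 and 5.78 alone and 5.01, 5.19 and 4.77 with astrocytes, a change of −0.81 (SE 0.21, adjusted p = 0.0387). CSF3, which encodes a growth factor of granulocytes, read 8.05, 7.95 and 8.0 alone and 6.96, 6.54 and 6.60 with astrocytes. Its change of −1.30 (SE 0.19, adjusted p = 0.021) was −1.17 in the SD-adjusted fit. IL11, a member of the IL6 family that acts on bone, fell by 1.43 (SE 0.27, adjusted p = 0.0328) and CSF1, the macrophage growth factor gene, by 0.97 (SE 0.24, adjusted p = 0.0376). LIF, another IL6 family member, had a change of −0.77 with an adjusted p of 0.0545. The list's median was −0.13 in both fits and −0.20 without array 2, and 7 of the 19 changes were positive.

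Of 18 chemokine genes measured, 1 fell and 2 rose (16.7%, near the 13.2% of all genes). CXCL2, a neutrophil attractant, read 5.04, 5.05 and 4.78 alone and 3.85, 4.28 and 4.13 with astrocytes, a change of −0.87 (SE 0.19, adjusted p = 0.0341) that was −1.05 in the SD-adjusted fit. CXCL8, the related attractant with the higher signal, read 8.97, 8.83 and 8.76 alone and 8.03, 4.92 and 7.53 with astrocytes. Array 2 stood far below the others, and the change of −2.03 (adjusted p = 0.0528) was −1.07 without it. CX3CL1, the membrane-bound chemokine that microglia sense, rose by 1.30 (adjusted p = 0.0396) and CXCL12 rose by 0.83 (adjusted p = 0.0456). Neither was called in the SD-adjusted fit. CCL2, the monocyte attractant, had a change of 0.06 and CCL20 of 0.01. The median over the list was 0.66, 0.37 without array 2 and 0.11 in the SD-adjusted fit.

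Among 26 genes for NF-kB subunits, their inhibitors and feedback regulators, 5 fell and none rose (19.2% called, against 8.15% of all genes that were lower). REL, a subunit gene, fell by 1.42 (SE 0.23, adjusted p = 0.0294), from 5.61, 5.16 and 5.52 to 4.27, 4.18 and 3.59. TNFAIP3, whose product A20 ends the response, fell by 1.10 (SE 0.23, adjusted p = 0.0338), from 6.14, 5.89 and 5.97 to 4.80, 5.10 and 4.79. These were the 2 members that also fell in the SD-adjusted fit (−1.29 and −1.16), and array 2 was not the lowest for either. NFKBIA, the inhibitor gene that NF-kB itself induces, read 9.38, 9.17 and 9.26 alone and 8.46, 6.07 and 7.96 with astrocytes. Its change of −1.77 (adjusted p = 0.0489) was −1.05 without array 2. NFKB1 fell by 2.15 and SOD2, a mitochondrial antioxidant gene that NF-kB induces, by 1.53, or by 0.98 without array 2. The list's median was −0.63, −0.26 without array 2 and 0.02 in the SD-adjusted fit. Receptors and STAT genes of this signalling, 29 in all (10.3% called, against 13.2%), had 1 fall, OSMR (−2.59), the oncostatin M receptor gene, and 2 rises, SOCS1 (1.48), a feedback inhibitor of JAK kinases, and IL11RA (0.77). STAT3 itself was at −1.30 with an adjusted p of 0.091.

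Promoters of some of the genes that fell, all of them picked with a match, are shown because their shared letters can be read there. Each line gives 60 bases upstream of a RefSeq start site of GRCh38.p14, 5′ to 3′ on the gene's strand, with a match to GGGA, any 4 bases and CC, a form of the NF-kB site, in capitals. In TNFAIP3 and NFKBIA the match is on the opposite strand, so the capitals read as its reverse complement.
PTGS2: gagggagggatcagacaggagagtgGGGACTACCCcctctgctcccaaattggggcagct
IL6: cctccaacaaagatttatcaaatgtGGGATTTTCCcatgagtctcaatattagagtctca
CXCL2: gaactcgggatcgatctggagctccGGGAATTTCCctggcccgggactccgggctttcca
TNFAIP3: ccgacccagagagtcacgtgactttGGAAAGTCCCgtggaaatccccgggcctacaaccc
NFKBIA: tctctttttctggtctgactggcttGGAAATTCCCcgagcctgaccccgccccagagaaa
The windows lie at chr1:186680613-186680672 (minus strand), chr7:22727102-22727161 (plus), chr4:74099239-74099298 (minus), chr6:137867167-137867226 (plus) and chr14:35404796-35404855 (minus). IL1A, IL1B and IL11 also fell and held no match. Within 250 bases upstream of a start, on either strand, 8 of 11 genes that fell in the cytokine, chemokine and NF-kB lists or are PTGS2 held a match (72.7%). So did 30 of all 51 genes of these lists with a promoter sequence (58.8%) and 4408 of 13864 measured genes (31.8%). A match is a description of these letters, and the lists hold known NF-kB targets.

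**Figure D1:**
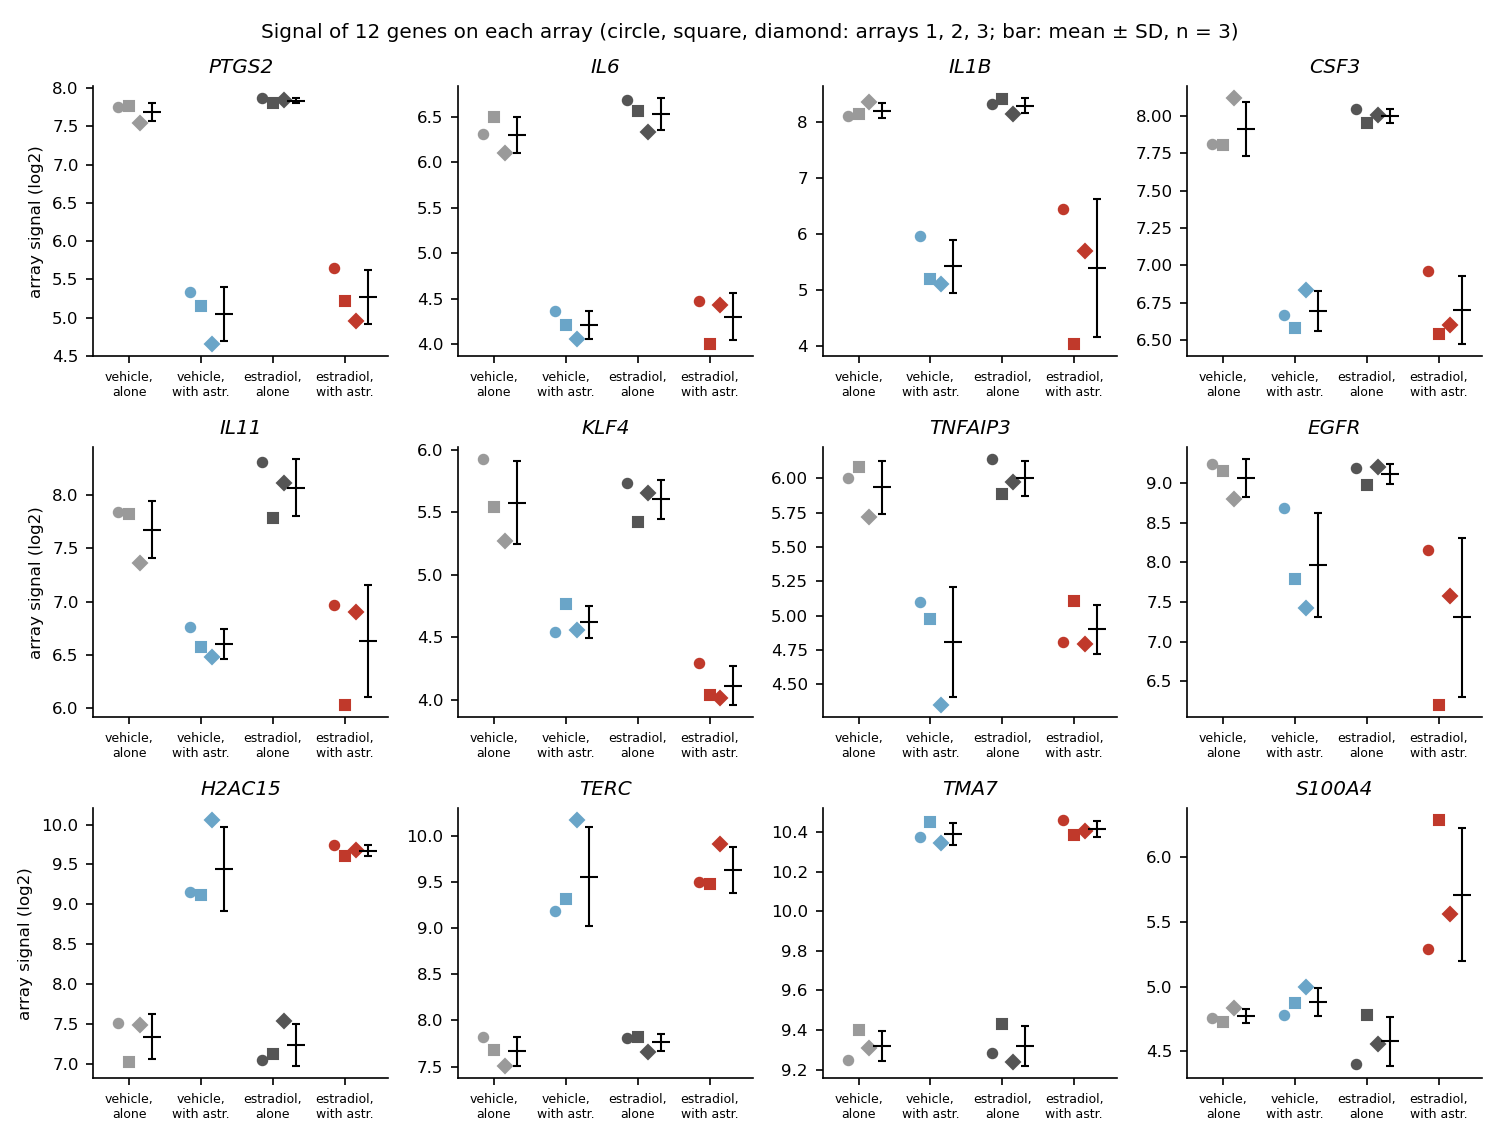
Signal of 12 genes (y axis, log2) on each of the 12 arrays, by group, with circles, squares and diamonds for arrays 1, 2 and 3 and a bar for the mean ± SD of 3 arrays. The PTGS2, IL6 and CSF3 arrays with astrocytes lie below all arrays without, and the IL1B and EGFR values of array 2 under estradiol fall far below their group. Under estradiol, H2AC15 reads 9.61 to 9.74 on the 3 co-culture arrays against 7.04 to 7.53 on the 3 arrays of cells alone.

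Immediate early genes, which cells switch on within minutes of a growth or stress signal, moved both ways. KLF4, a transcription factor gene of stem and epithelial cells, read 5.73, 5.42 and 5.65 alone and 4.29, 4.04 and 4.01 with astrocytes. The groups did not overlap and the change was −1.49 (SE 0.21, adjusted p = 0.0195). FOS, which encodes a subunit of the AP-1 factor, read 6.44, 6.41 and 6.71 alone and 5.33, 5.39 and 5.53 with astrocytes, a change of −1.10 (SE 0.18, adjusted p = 0.0282). Both fell in the SD-adjusted fit too (−1.33 and −1.05). JUNB, a partner of FOS, fell by 0.77 (adjusted p = 0.0377). KLF2 rose by 1.27, EGR4 by 1.62 and IER5 by 1.01, which together made 3 rises and 3 falls of 20 genes measured (30%, against 13.2% of all genes). The list's median was −0.08, −0.14 without array 2 and −0.06 in the SD-adjusted fit. EGR1 was at −0.55 (adjusted p = 0.0595) and JUN at −0.54 (adjusted p = 0.212).

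EGFR, the epidermal growth factor receptor that MDA-MB-231 cells carry in plenty, fell, and so did the genes of 2 of its family's ligands. It read 9.18, 8.97 and 9.19 alone and 8.15, 6.20 and 7.57 with astrocytes. All co-culture arrays were lower, array 2 most, and the change was −1.81 (SE 0.44, adjusted p = 0.0368). EREG, the ligand epiregulin, read 9.05, 9.02 and 9.21 alone and 8.06, 5.30 and 7.15 with astrocytes, a change of −2.26 (SE 0.55, adjusted p = 0.0368) that was −1.49 without array 2. NRG1, another ligand gene, fell by 1.04. ADAM10 and ADAM17, whose products shed ligands from the cell surface, fell (−2.38 and −1.79, or −1.49 and −1.19 without array 2). HBEGF was at −1.22 (adjusted p = 0.0505), ERBB2 at −0.18 and ERBB3 at 0.33. In all 5 of 17 members fell and none rose (29.4%, against 8.15% of all genes that were lower), and none was called in the SD-adjusted fit, where EGFR was at −0.77 and EREG at −0.97. The median of the list was −0.18, −0.04 without array 2 and −0.16 in that fit. The share of all genes that were lower also varied with gene length and level. In the longest of 5 length classes it was 0%, 0.307%, 16%, 38.1% and 37.4% from the lowest to the highest of 5 level classes. This list had a median length of 101 kb, and the part of length in its falls was not tested.

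ERK is the kinase at the end of the pathway that EGFR starts. Of 20 genes it induces or that feed back on it, 7 fell (SPRED1, SPRED2, CCND1, SPRY2, PHLDA1, MYC and SPRY1) and 1 rose (SPRED3, by 1.33), 40% against 13.2% of all genes. SPRED1, a brake on RAS signalling, fell by 2.01 (SE 0.41, adjusted p = 0.0334) and SPRY2, another brake, by 1.32 (SE 0.36, adjusted p = 0.0416). DUSP6, the phosphatase gene often read as a gauge of ERK activity, was at −0.48 (adjusted p = 0.202). None of the 20 was called in the SD-adjusted fit, and the median went from −0.93 to −0.28, and to −0.56 without array 2.

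Replication-dependent histone genes, which are transcribed in S phase and make RNAs without a poly(A) tail, included many that rose. Of 49 measured, 12 rose and none fell (24.5%, against 5.03% of all genes that were higher), and 48 of 49 changes were positive. The median change was 0.66, and 0.64 in the SD-adjusted fit. H2AC15, a histone H2A gene at chr6:27837880-27838375, read 7.04, 7.12 and 7.53 alone and 9.74, 9.61 and 9.68 with astrocytes. The co-culture arrays lay within 0.2 log2 units of each other and more than 2 above the rest. The rise was 2.44 (SE 0.27, adjusted p = 0.00591), or 5.44-fold, and 2.51 in the SD-adjusted fit. H4C2 read 9.63, 9.48 and 9.29 alone and 10.47, 10.50 and 10.69 with astrocytes, a rise of 1.09 (SE 0.21, adjusted p = 0.0332). H2AC13 rose by 1.08 and H3C11 by 1.84, and these with H2AC15 and H4C2 were the 4 members that rose in both fits. H2BC9 read 5.71, 5.33 and 6.01 alone and 7.28, 8.80 and 7.65 with astrocytes, highest on array 2. Its rise of 2.23 (SE 0.45, adjusted p = 0.0332) was 1.5 in the SD-adjusted fit, with an adjusted p of 0.0746. Histone genes are close copies of each other, so probes may share signal between them. Of the 46 measured members on chromosome 6, between 26017032 and 27893891, 11 rose. Replacement histones and factors that process histone RNA, 14 in all, had 2 falls and no rise (14.3%, against 8.15% of all genes that were lower). The falls were H2AZ2 (−1.12) and CASP8AP2, a factor needed for histone transcription (−1.31). In the SD-adjusted fit neither was called and H2AZ1 rose by 0.86, and the median went from −0.34 to 0.24, and to −0.05 without array 2.

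**Figure D2:**
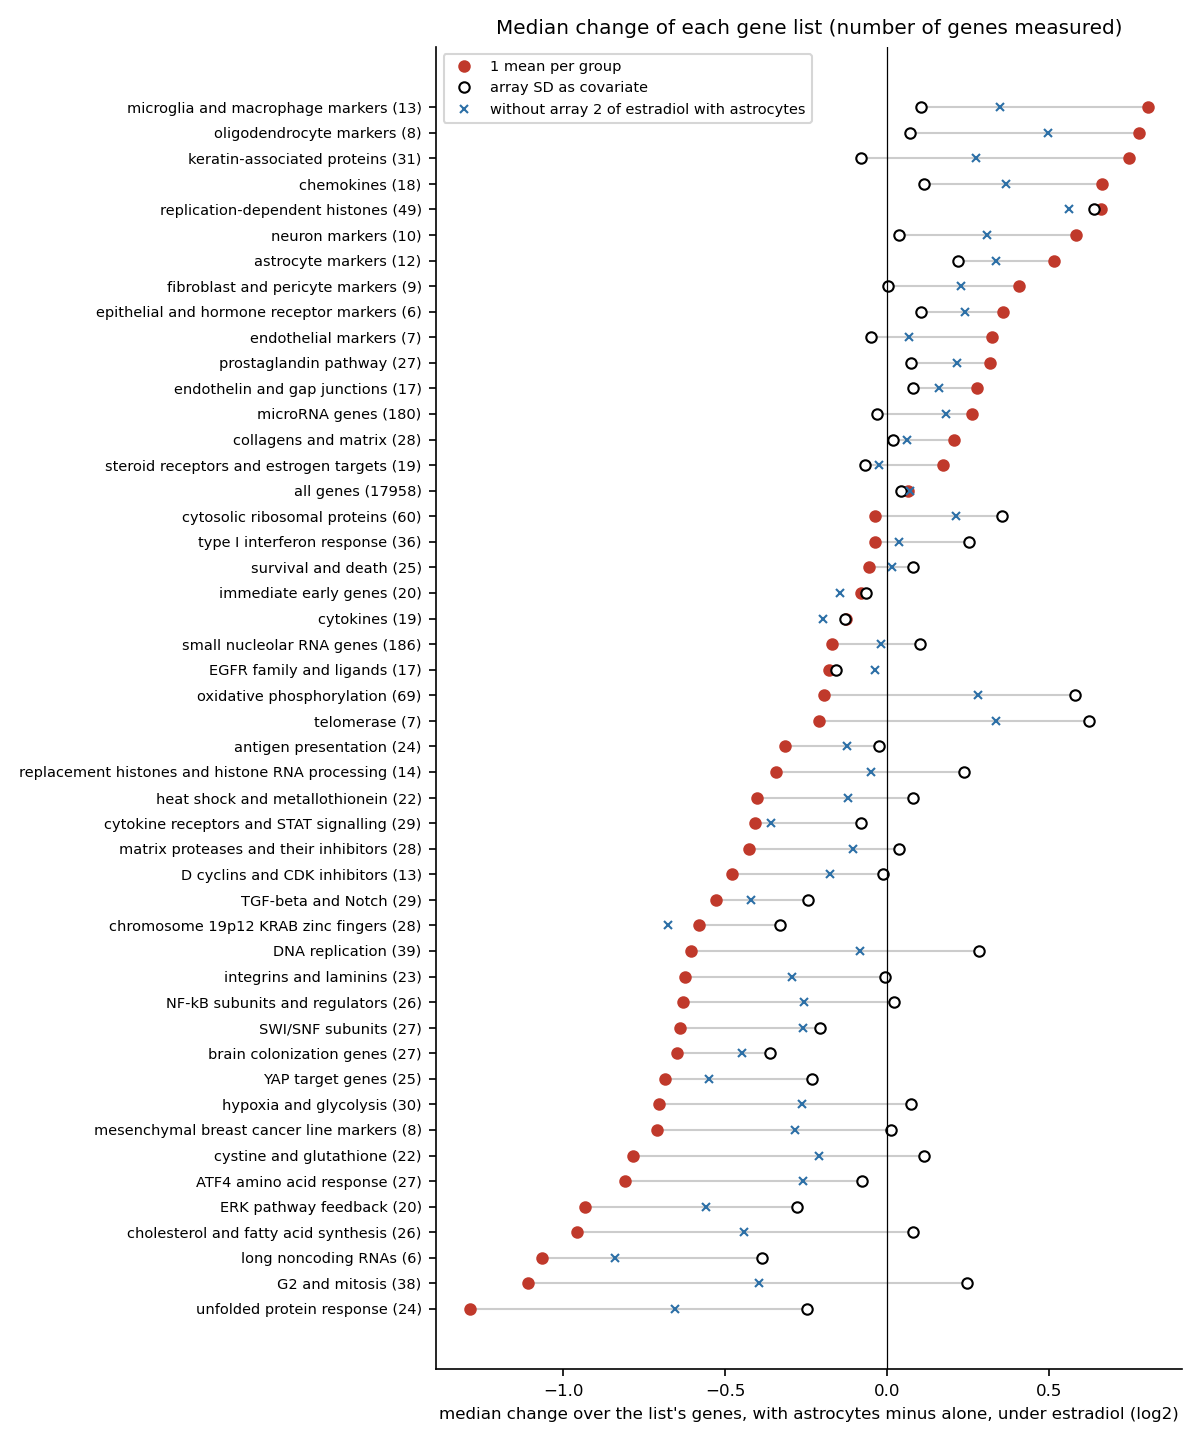
Median change (x axis, log2, with astrocytes minus alone, under estradiol) over the measured genes of each list, with their number in brackets, as 1 mean per group (red), in the SD-adjusted fit, drawn as array SD as covariate (open) and without array 2 of estradiol with astrocytes (blue crosses). Replication-dependent histones stay at 0.66, 0.64 and 0.56, while G2 and mitosis genes go from −1.11 to 0.25 and −0.40.

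H2B promoters carry an octamer, ATTTGCAT, that the factor OCT1 reads in S phase, and the 3 H2B genes that rose are shown for it. Each line is 60 bases upstream of a start site, 5′ to 3′ on the gene's strand in GRCh38.p14, with the octamer in capitals.
H2BC9: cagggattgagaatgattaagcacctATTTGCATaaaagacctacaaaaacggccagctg
H2BC6: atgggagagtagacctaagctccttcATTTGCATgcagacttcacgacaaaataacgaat
H2BC4: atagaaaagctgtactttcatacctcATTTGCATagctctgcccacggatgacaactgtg
They lie at chr6:26251539-26251598 (plus strand), chr6:26183627-26183686 (plus) and chr6:26124016-26124075 (minus). H2BC6 rose by 1.07 and H2BC4 by 1.00. The octamer was found, on either strand within 250 bases upstream, in 12 of 14 measured H2B genes with a promoter sequence, in 9 of 11 H2A genes and in none of the H3, H4 or H1 genes, against 2.08% of 13864 measured genes. Of the 11 members that rose and have a promoter sequence, 6 held no octamer: H2AC15, H2AC13, H4C2, H4C8, H1-2 and H3C7.

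TERC, the RNA template from which telomerase makes telomere repeats, also rose. It lies at chr3:169764610-169765060 and read 7.81, 7.82 and 7.65 alone and 9.50, 9.47 and 9.91 with astrocytes. The rise was 1.87 (SE 0.26, adjusted p = 0.0195), or 3.65-fold, and 1.97 in the SD-adjusted fit. Of 7 telomerase genes it alone passed (14.3%, near the 13.2% of all genes). TERT, the catalytic subunit gene, read 4.56, 4.74 and 4.80 alone and 4.92, 5.80 and 5.17 with astrocytes (0.60, or 0.34 without array 2, adjusted p = 0.0881), and DKC1, whose product binds TERC, was at −1.12 (adjusted p = 0.137). TMA7, a small protein linked to translation, rose by 1.10 (SE 0.16, adjusted p = 0.021), from 9.29, 9.43 and 9.24 to 10.46, 10.38 and 10.40.

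Outside these lists, the rises with the smallest p that passed in both fits were DHRS3 (1.23), which encodes an enzyme that reduces retinal, C1QL1 (1.63), ZNF414 (1.36), RNASE9 (1.00), CLIC3 (1.45), PRKAR1B (1.21), a regulatory subunit gene of protein kinase A, and MRPL54 (1.22), a mitochondrial ribosome gene. OR51A2 (1.37), NDUFS7 (1.00), PARD6A (1.00), a cell polarity gene, CD226 (1.05) and MCRIP2 (1.16) completed the 15. RNASE9 and OR51A2 had low signals, with group means of 2.72 and 2.22 alone. The falls were PDXDC2P-NPIPB14P (−3.13), DNHD1 (−1.68), BLID (−2.99), CD163L1 (−1.37), ANKRD36B (−1.81), SRGAP1 (−2.02), ZBTB43 (−1.26), NUDT13 (−1.39), CREBBP (−1.92), HIPK2 (−1.68) and BOD1L1 (−2.40), beside PTGS2, IL6, KLF4 and CSF3. CREBBP encodes a histone acetyltransferase that many signal-driven factors recruit. It read 7.64, 7.53 and 7.43 alone and 6.01, 5.30 and 5.54 with astrocytes, a change of −1.92 (SE 0.29, adjusted p = 0.0244). HIPK2, a kinase of the p53 response, fell by 1.68 (SE 0.26, adjusted p = 0.0258), and SRGAP1, a gene of SLIT and ROBO signalling, by 2.02 (SE 0.29, adjusted p = 0.021). These changes were −1.5, −1.31 and −1.60 in the SD-adjusted fit.

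Of 180 microRNA genes, read here through probe sets for the gene and not for the mature strand, 19 were higher and 15 lower (18.9%, against 13.2% of all genes). Of these, 1 of the 19 and 6 of the 15 kept their calls in the SD-adjusted fit. The RefSeq mature sequences of those with the smallest p are printed 5′ to 3′ with the seed, bases 2 to 8, in capitals, because some of them share a seed. MIR222 and the let-7 members other than MIRLET7A2 were chosen after their values were seen.
hsa-miR-218-5p (MIR218-1): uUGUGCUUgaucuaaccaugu
hsa-miR-30c-5p (MIR30C2): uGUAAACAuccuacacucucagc
hsa-miR-30e-5p (MIR30E): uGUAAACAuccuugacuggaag
hsa-miR-221-3p (MIR221): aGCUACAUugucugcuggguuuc
hsa-miR-222-3p (MIR222): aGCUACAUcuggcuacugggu
hsa-let-7a-5p (MIRLET7A2): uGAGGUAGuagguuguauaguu
hsa-let-7c-5p (MIRLET7C): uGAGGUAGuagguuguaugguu
hsa-let-7f-5p (MIRLET7F2): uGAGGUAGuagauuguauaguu
MIR30C2 and MIR30E share the seed GUAAACA and fell, but the other 4 of 6 measured miR-30 genes did not pass. MIR30A was at −0.68, MIR30B at 0.09, MIR30D at 0.28 and MIR30C1, the other gene of miR-30c-5p, at −0.37. MIR30C2 read 5.93, 5.51 and 5.63 alone and 3.75, 2.66 and 3.46 with astrocytes (−2.40, SE 0.33, adjusted p = 0.0195). MIR30E read 3.78, 3.83 and 3.48 alone and 2.55, 2.27 and 2.66 with astrocytes (−1.20, SE 0.18, adjusted p = 0.0244). MIR221 and MIR222, which share the seed GCUACAU and lie 749 bases apart on the X chromosome, fell (−2.52 and −1.26).

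The let-7 genes share the seed GAGGUAG. Of 9 measured, 1 fell, 2 rose and 6 did not pass. MIRLET7A2 read 8.09, 6.58 and 7.21 alone and 4.88, 4.28 and 3.51 with astrocytes, a change of −3.07 (SE 0.55, adjusted p = 0.0303). MIRLET7C rose by 1.19, from 1.93, 1.97 and 1.88 to 2.58, 3.81 and 2.96, all low signals. MIRLET7F2 rose by 1.83 (SE 0.50, adjusted p = 0.0417), from 3.36, 4.08 and 3.28 to 4.71, 6.21 and 5.28. Array 2 was the highest for both that rose, and in the SD-adjusted fit they were at 0.62 and 0.66 against −2.65 for MIRLET7A2. MIRLET7A2 lies 30307 bases from BLID, a gene of a pro-apoptotic protein, and BLID fell as far: it read 7.81, 7.47 and 7.30 alone and 4.93, 4.53 and 4.15 with astrocytes (−2.99, SE 0.41, adjusted p = 0.0195).

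MIR218-1, which fell by 2.06 (SE 0.25, adjusted p = 0.0104), from 5.41, 5.33 and 5.03 to 3.62, 3.09 and 2.89, lies within SLIT2, the gene of a guidance cue. SLIT2 fell by 2.81 (adjusted p = 0.0338). Over the 8 lower microRNA genes that lie within exactly 1 other measured gene, that gene had a negative change in all 8 and fell in 2, with a median of −0.56. 4 of the 8 had a positive change in the SD-adjusted fit, where the median was −0.06. Over the 9 higher ones it had a positive change in 5, rose in 1 and fell in 1. That fall was HUWE1, at −1.88 where MIRLET7F2 inside it rose by 1.83. The 60 that were not called had hosts with a median of −0.29.

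Small nucleolar RNA genes guide modification of ribosomal RNA and are mostly cut from introns. Of 186 measured, 7 were higher and 14 lower (11.3%, against 13.2% of all genes), and in the SD-adjusted fit none of the 7 and 4 of the 14 kept their calls. The median was −0.17, −0.02 without array 2 and 0.10 in the SD-adjusted fit. SNORA1 read 5.69, 4.97 and 5.11 alone and 3.19, 1.92 and 2.90 with astrocytes, a change of −2.58 (SE 0.37, adjusted p = 0.021). SNORD14E fell by 2.19, SNORA75 by 2.00, SNORD52 by 1.87 and SNORA74A by 2.19. None of the hosts of the 7 lower ones with exactly 1 host was called. SNORD14E lies within HSPA8, which was at −0.42, and SNORA75 within NCL, which was at −0.96.

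Genes of protein folding and degradation in the endoplasmic reticulum, the unfolded protein response, held mostly falls among those that passed. Of 24 measured, 9 fell and 1 rose (CRELD2, by 0.69), 41.7% against 13.2% of all genes. EDEM1, which targets misfolded glycoproteins for degradation, read 7.50, 7.36 and 7.51 alone and 6.18, 4.91 and 5.54 with astrocytes, a change of −1.91 (SE 0.34, adjusted p = 0.0294). HSPA5, the chaperone BiP, read 10.61, 10.22 and 10.70 alone and 9.34, 7.25 and 8.91 with astrocytes, a change of −2.01 (SE 0.45, adjusted p = 0.0351). These were the 2 that fell in the SD-adjusted fit too (−1.13 and −0.85). EIF2AK3, the stress sensor PERK, fell by 1.33. The list's median of −1.29 was −0.66 without array 2 and −0.25 in the SD-adjusted fit. In the ATF4 response to amino acid shortage 7 of 27 fell and none rose (25.9%, against 8.15% of all genes that were lower). VLDLR (−1.33) alone of these fell in both fits, and DDIT3 fell by 0.87 and DDIT4 by 1.62. The median over these 27 was −0.81, −0.26 without array 2 and −0.08 in the SD-adjusted fit. ATF4 was at −0.69 (adjusted p = 0.0926).

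SLC7A11, the cystine transporter that supplies glutathione synthesis, read 8.88, 8.30 and 8.97 alone and 7.05, 4.03 and 6.03 with astrocytes. It was low on all 3 and lowest on array 2, with a change of −3.01 (SE 0.65, adjusted p = 0.0338) that was −2.18 without that array and −1.33 in the SD-adjusted fit, where it still passed (adjusted p = 0.0333). GCLM and TXNRD1, of the same antioxidant programme, fell (−1.47 and −2.06, the latter −1.15 without array 2). That made 3 falls and no rise of 22 (13.6%, against 8.15% of all genes that were lower). The median over these 22 was −0.78, −0.21 without array 2 and 0.11 in the SD-adjusted fit. HMOX1 was at 0.11. Of 30 hypoxia and glycolysis genes 5 fell and none rose (16.7%, against 8.15% of all genes that were lower). LOX, the enzyme that crosslinks collagen, read 8.20, 7.87 and 8.10 alone and 6.57, 4.22 and 5.64 with astrocytes (−2.57, SE 0.52, adjusted p = 0.0332). HK2, the first enzyme of glycolysis, fell by 0.89, and LOX and HK2 both fell in the SD-adjusted fit (−1.19 and −1.01). VEGFA fell by 1.27, while ANGPTL4 was at 0.38. In cholesterol and fatty acid synthesis 4 of 26 fell (ACACA, CYP51A1, SQLE and SCD) and none rose, 15.4% against 8.15% of all genes that were lower. None of the 4 was called in the SD-adjusted fit. ACACA fell by 1.68 or 1.12 without array 2, and FASN was at −0.68. The median of the hypoxia list was −0.70, −0.26 without array 2 and 0.07 in the SD-adjusted fit, and that of the lipid list −0.96, −0.44 and 0.08.

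The medians of the mitosis and replication lists changed sign with the fit. Of 38 G2 and mitosis genes 5 fell and none rose (13.2%, against 8.15% of all genes that were lower). They were MKI67 (−2.04), CENPE (−1.94), CENPF (−1.86), ASPM (−2.23) and CENPA (−0.85). The median over the list was −1.11, or −0.40 without array 2. In the SD-adjusted fit none was called and the median was 0.25. MKI67, the proliferation antigen gene, read 8.38, 7.98 and 8.16 alone and 6.87, 5.57 and 5.97 with astrocytes, and CCNB1 was at −0.57 (adjusted p = 0.321). Of 39 DNA replication genes HELLS fell (−2.14) and CDT1 rose (0.83), 5.13% in all, against 13.2% of all genes. Their list had a median of −0.61, −0.08 without array 2 and 0.28 in the SD-adjusted fit. Among 13 D cyclins and CDK inhibitors 3 fell and 2 rose (38.5%, against 13.2% of all genes). CCND2 fell by 0.93 and by 0.89 in the SD-adjusted fit, from 6.14, 5.80 and 5.83 to 5.0, 5.08 and 4.91. CDK6 fell by 2.38 and CCND1 by 1.02. CDKN1C, which encodes the inhibitor p57, rose by 0.93 (SE 0.19, adjusted p = 0.0332) and CDKN2A rose by 1.30, or by 0.86 without array 2. CDKN1A was at −0.48 (adjusted p = 0.159).

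Genes that earlier studies of breast cancer tied to brain colonization numbered 27, of which 9 fell and 2 rose (40.7%, against 13.2% of all genes). With the SD adjustment 2 fell and 1 rose. PTGS2, EREG, TNC, LAMA4, HK2, PLEKHA5, HPSE, MYC and MMP1 fell. S100A4 and PLAAT4 rose. PLAAT4, a phospholipase and growth suppressor gene, rose by 1.11 (SE 0.23, adjusted p = 0.0332), from 4.03, 4.0 and 4.19 to 5.44, 4.96 and 5.17, and by 1.19 in the SD-adjusted fit. TNC, the matrix protein of metastatic niches, read 7.89, 7.68 and 7.78 alone and 6.70, 5.59 and 6.22 with astrocytes (−1.61, SE 0.39, adjusted p = 0.0368). ST6GALNAC5 was at −0.30 and PCDH7, which joins tumour cells to astrocytes, at 0.13. The median of −0.65 was −0.36 in the SD-adjusted fit.

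Of 28 matrix proteases and inhibitors 3 fell and 1 rose (14.3%, near the 13.2% of all genes), and ADAMTS1 alone of these kept its call in the SD-adjusted fit. MMP1, a collagenase gene, read 10.72, 10.55 and 10.84 alone and 10.03, 7.96 and 9.79 with astrocytes, a change of −1.44 that was −0.79 without array 2. MMP9, a gelatinase gene, read 4.44, 4.34 and 4.43 alone and 5.09, 6.27 and 4.92 with astrocytes, a rise of 1.02 that was 0.60 without array 2. MMP14 fell by 0.72, and ADAMTS1, a protease of proteoglycans, by 1.77 (SE 0.28, adjusted p = 0.0271) and by 1.16 in the SD-adjusted fit. Of 28 collagens and matrix genes COL12A1 (−2.10), LOX, TNC and THBS1 fell and COL6A2 rose (0.63), 17.9% in all, against 13.2% of all genes. Of these LOX alone kept its call in the SD-adjusted fit. The median over that list was 0.21, 0.06 without array 2 and 0.02 in the SD-adjusted fit. Of 23 integrins and laminins ITGAV (−2.13), LAMB1, LAMC1 and LAMA4 fell and ITGB6 rose (0.71), 21.7% in all, against 13.2% of all genes. None of these kept its call in the SD-adjusted fit. Their list had a median of −0.63, −0.29 without array 2 and −0.01 in the SD-adjusted fit. THBS1 was at −1.88, or −1.12 without array 2.

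In TGF-beta and Notch signalling 9 of 29 fell and none rose (31%, against 8.15% of all genes that were lower), with a median of −0.53 that was −0.25 in the SD-adjusted fit. The smallest p was that of INHBA, an activin subunit gene, from 5.32, 5.30 and 5.31 to 4.38, 4.0 and 4.01 (−1.18, SE 0.23, adjusted p = 0.0328). INHBA was the member that also fell in the SD-adjusted fit, by 1.03. The receptor genes TGFBR1 (−1.67), TGFBR3 (−1.43), ACVR1 (−1.23) and BMPR2 (−2.20) fell, as did NOTCH2 (−1.71, or −1.14 without array 2), while JAG1 was at −1.49 (adjusted p = 0.0597). Of 25 YAP target genes 7 fell and none rose (28%, against 8.15% of all genes that were lower). The median over these 25 was −0.69, and −0.23 in the SD-adjusted fit. CRIM1 fell by 2.13 and, in the SD-adjusted fit, by 1.13. CCN2, the classical target CTGF, fell by 0.92, or by 0.58 without array 2, and CCN1 was at −0.85 (adjusted p = 0.107). Of 25 survival and death genes BLID, MCL1 and TNFRSF10B fell and BIK, a pro-apoptotic BCL2 relative, rose by 1.00. That is 16% in all, near the 13.2% of all genes. MCL1, which keeps cells alive, was at −2.02, or −1.20 without array 2, and BCL2L1, of the same function, at −0.23. Gap junction and endothelin genes, 17 in all (11.8% called, near the 13.2% of all genes), held 1 fall, PANX1 (−1.89), and 1 rise, GJA4 (1.58). GJA1, the gene of connexin 43, was at −0.74 (adjusted p = 0.0706) and EDN1 at −0.32.

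Among chromatin remodelers of the SWI/SNF family 6 of 27 fell and 3 rose (33.3%, against 13.2% of all genes). None of the 9 kept its call in the SD-adjusted fit, where ACTL6A rose (0.78, against −0.64), and the median was −0.64, −0.26 without array 2 and −0.21 in that fit. PBRM1 fell by 2.90, ARID1A by 1.12 and ARID2 by 1.40, and SMARCD3 rose by 1.13, BCL7C by 0.82 and ACTL6B by 0.97. Of 28 KRAB zinc finger genes on chromosome 19p12, which silence transposons and have similar sequences, 4 fell and none rose, ZNF737 by 3.02. That is 14.3%, against 8.15% of all genes that were lower, and none of the 4 was called in the SD-adjusted fit. Of 6 long noncoding RNAs measured MALAT1 and TUG1 fell (33.3%, against 8.15% of all genes that were lower), neither of them in the SD-adjusted fit. MALAT1, a nuclear RNA, read 10.27, 9.75 and 10.00 alone and 8.54, 5.28 and 7.56 with astrocytes (−2.88, SE 0.68, adjusted p = 0.036). Cytosolic ribosomal protein genes had 1 rise (RPL36) and 1 fall (RPL37A) of 60 (3.33%, against 13.2% of all genes). Their median of −0.04 was 0.21 without array 2 and 0.35 in the SD-adjusted fit. Oxidative phosphorylation genes had 2 rises of 69, NDUFS7 and NDUFB7 (0.80), and no fall (2.9%, against 5.03% of all genes that were higher). Their median was −0.19, or 0.28 without array 2. In the SD-adjusted fit 13 rose (against 1.59% of all genes) and the median was 0.58. Of 31 keratin-associated protein genes 4 rose and none fell (12.9%, against 5.03% of all genes that were higher). KRTAP10-12 rose by 2.19, KRTAP10-2 by 2.04, KRTAP10-1 by 1.95 and KRTAP10-10 by 1.24, and none of the 4 kept its call in the SD-adjusted fit. The list's median of 0.75 was 0.27 without array 2 and −0.08 in the SD-adjusted fit. These 4 lie in 1 family of similar sequences on chromosome 21.

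In the interferon response 3 of 36 rose and none fell (8.33%, against 5.03% of all genes that were higher). OAS1, a sensor of double-stranded RNA, rose by 0.67 (SE 0.17, adjusted p = 0.0387), from 5.70, 5.46 and 5.64 to 6.27, 6.13 and 6.42, and by 0.77 in the SD-adjusted fit. IRF7 rose by 1.01 and MX2 by 0.88, or by 0.58 without array 2, while IFIT1 was at −0.19 and ISG15 at 0.18. In antigen presentation 2 of 24 fell, ERAP1 (−1.75) and TAP2 (−1.05), 8.33%, near the 8.15% of all genes that were lower. B2M, the light chain of class I molecules, was at −1.02 (adjusted p = 0.238), and at 0.82 in the SD-adjusted fit (adjusted p = 0.0389), a reversal. None of 22 heat shock and metallothionein genes passed with 1 mean per group, 7 with positive and 15 with negative changes. HSPE1 and DNAJA1 rose in the SD-adjusted fit (0.93 and 0.94), where the median was 0.08, against −0.40, and −0.12 without array 2.

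The gene of estrogen receptor alpha, ESR1, had a low signal in cells alone. ESR1 read 3.31, 3.64 and 3.38 alone and 3.79, 5.09 and 4.48 with astrocytes (1.00, adjusted p = 0.0679), and 0.16 was its change in the SD-adjusted fit. ESR2 was at 0.19, PGR at 0.64 and GPER1, the membrane estrogen receptor gene, at −0.07, none of which passed. TFF1, a classical estrogen target, rose by 1.57 (SE 0.40, adjusted p = 0.038), from 4.0, 4.04 and 3.96 to 4.77, 6.64 and 5.28. Array 2 was highest, the change was 1.03 without it, and TFF1 was not called in the SD-adjusted fit (0.57). The coactivator genes NCOA1 and NCOA2 and the glucocorticoid receptor gene NR3C1 fell (−1.29, −1.08 and −1.46), which with CCND1 made 4 falls and 1 rise of 19 (26.3%, against 13.2% of all genes), none of them called in the SD-adjusted fit.

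The change with astrocytes was set beside that under vehicle, which rests on other arrays. Of the 2366 genes called under estradiol, 2363 had the same sign under vehicle, and 2137 a smaller size. These genes were chosen on the estradiol arrays, so neither count tests the difference, and both comparisons share the spread of 1 fit. The test of the difference, an interaction term, called 0 of 17958 genes in limma. Of these, 31 had an unadjusted p under 0.05 (0.173%), and arrayWeights, which weights arrays by their fit, called 648. Without any difference, a share of about 0.05 would have such a p on average. The test thus called less than that here, and its 0 calls do not show that the effects are equal. The change under estradiol and under vehicle was −2.56 and −2.64 for PTGS2, −2.23 and −2.10 for IL6 and 1.87 and 1.89 for TERC. S100A4, a calcium-binding protein gene tied to metastasis, read 4.40, 4.78 and 4.56 alone and 5.29, 6.29 and 5.56 with astrocytes, all 3 higher. Its rise was 1.13 (SE 0.24, adjusted p = 0.0338) under estradiol, against a change of 0.11 under vehicle (adjusted p = 0.751). Array 2 read highest, and S100A4 was not called in the SD-adjusted fit. The difference of 1.02 had an unadjusted p of 0.0123 and an adjusted p of 1.0, so it did not pass.

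**Figure D3:**
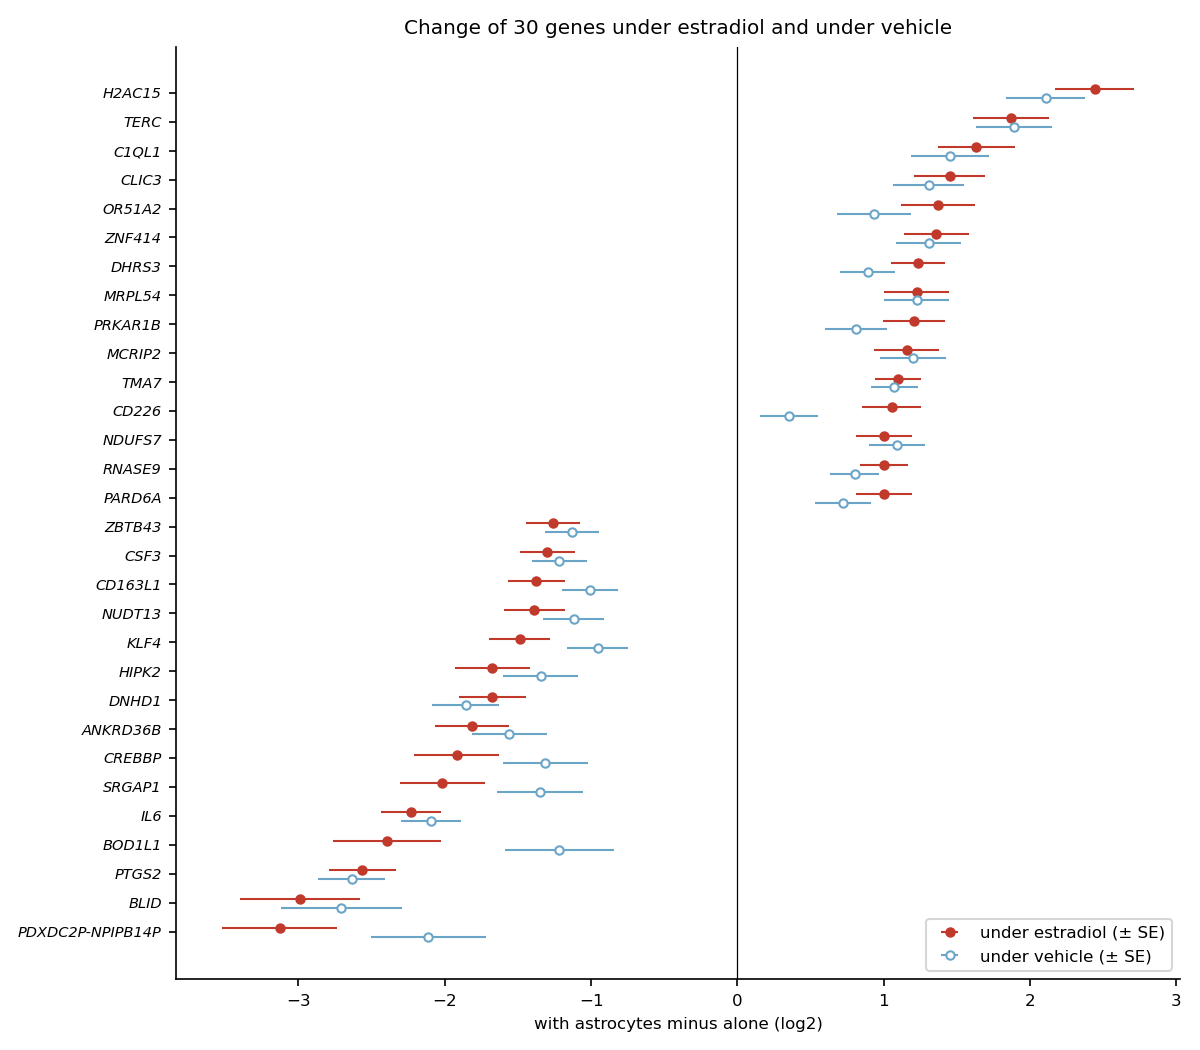
Change with astrocytes (x axis, log2, with minus alone) of the 15 rises and 15 falls with the smallest p that passed in both fits, under estradiol (filled) and under vehicle (open), each with its SE from the fit of 12 arrays. All 30 genes lie on the same side of 0 in both, with PTGS2 at −2.56 and −2.64 and CD226 at 1.05 and 0.35.

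Markers of cells that an astrocyte culture can hold were read, which a sort for EGFP should leave out. Of 12 astrocyte markers none rose and 1, SLC1A3, fell by 0.97 (8.33%, near the 8.15% of all genes that were lower). GFAP, the defining filament gene, read 4.72, 5.17 and 4.91 alone and 5.43, 6.70 and 5.78 with astrocytes (1.04, adjusted p = 0.0578), and was at 0.67 without array 2 and at 0.21 in the SD-adjusted fit. The summed linear signal of the astrocyte list was 567.7 to 626.2 in estradiol alone and 538.3 to 651.4 in estradiol with astrocytes. Of 13 microglia and macrophage markers CD14 (1.04) and SPI1 (1.28) rose (15.4%, against 13.2% of all genes called and 5.03% that were higher). Their summed signal was 495.4 to 528.4 alone and 516.2 to 636.9 with astrocytes over the list. OLIG1 (1.04, or 0.69 without array 2) was the only riser of 8 oligodendrocyte markers (12.5%, against 5.03% of all genes that were higher). None of 10 neuron, 7 endothelial and 9 fibroblast markers passed. The summed signals alone and with astrocytes were 195.2 to 208.8 and 219.9 to 347.2 for neuron, 142.3 to 160.4 and 176.9 to 318.7 for oligodendrocyte, 112.5 to 117.9 and 114.0 to 165.8 for endothelial and 136.5 to 170.5 and 177.3 to 295.7 for fibroblast markers. The 6 lists of other cell types had medians of 0.32 to 0.81, 0.07 to 0.50 without array 2 and −0.05 to 0.22 in the SD-adjusted fit. On this scale no marker can be called absent, and the part of mouse RNA on these human probes was not tested. The 8 markers of the line itself (VIM, CD44 and others) had a median change of −0.71, or −0.28 without array 2, and mean signals of 9.80 to 10.08 alone and 8.17 to 9.81 with astrocytes. The 6 epithelial and hormone receptor markers had a median change of 0.36. In a sorted pool, fewer cells of a kind and less RNA per cell cannot be told apart.

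Changes followed the level of a gene and its length. In 5 equal classes of genes by level in vehicle alone, the median change went from 0.52 in the lowest to −0.92 in the highest, and calls from 230 higher and 1 lower to 20 higher and 553 lower. In the SD-adjusted fit these medians were 0.05 and 0.15. Genes that were lower were long, with a median RefSeq length of 80.1 kb against 9.48 kb for those that were higher and 24.9 kb for all. In the highest class of level the median change was −0.23 for the shortest of 5 length classes and −1.42 for the longest. That difference remained in the SD-adjusted fit, where the medians were 0.40 and −0.27, and without array 2, where they were 0.16 and −0.81. The histone genes, with a median length of 0.489 kb, and the ribosomal protein and oxidative phosphorylation genes, with 4.74 and 10.9 kb, are short, and the EGFR family, with 101 kb, is long. The part of gene length in their values was not tested.

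**Figure D4:**
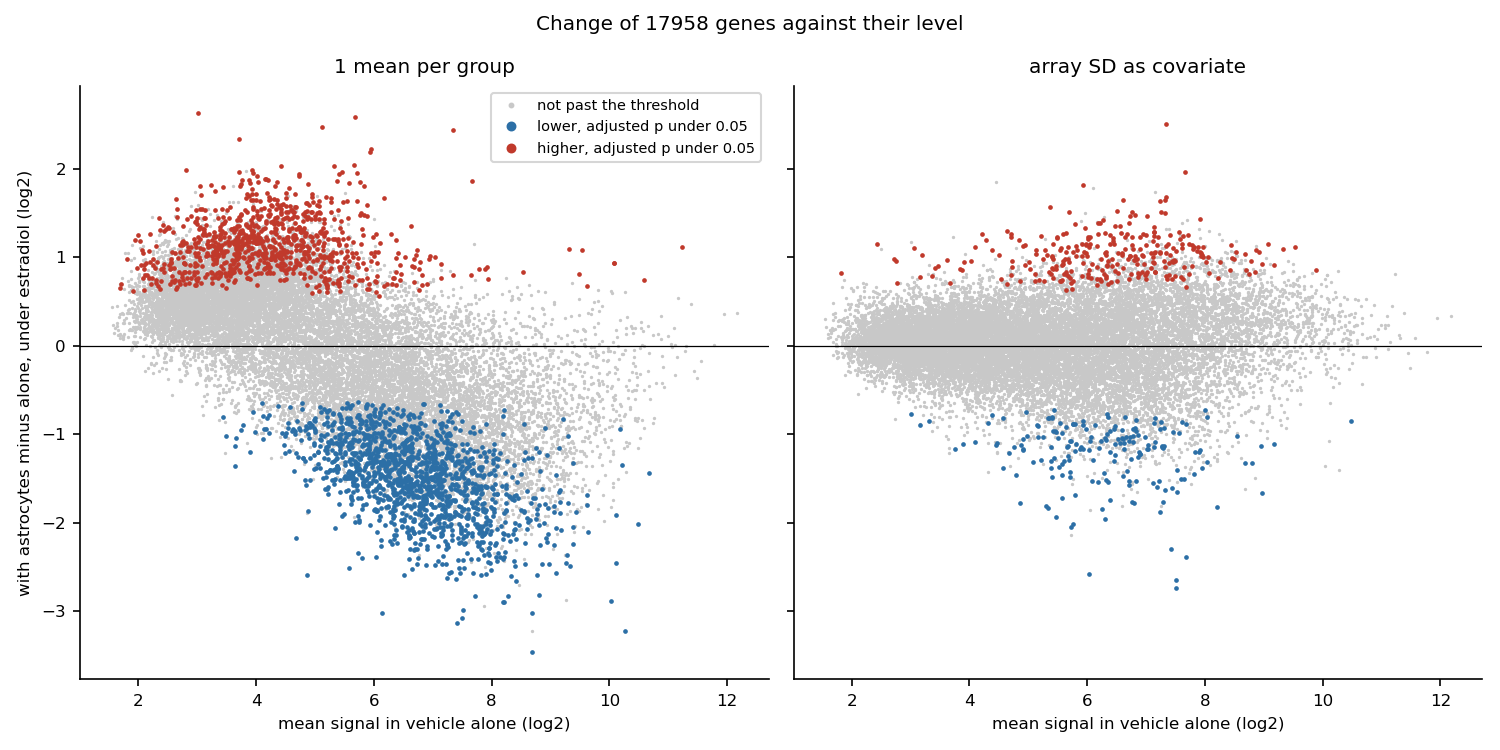
Change of each of 17958 genes under estradiol (y axis, log2, with astrocytes minus alone) against its mean signal in vehicle alone (x axis, log2), as 1 mean per group (left) and in the SD-adjusted fit (right), with genes past an adjusted p of 0.05 in blue (lower) and red (higher). On the left the cloud tilts from positive values at low signal to negative values at high signal, with 903 red and 1463 blue genes; on the right it is level, with 286 and 183.

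**Figure D5:**
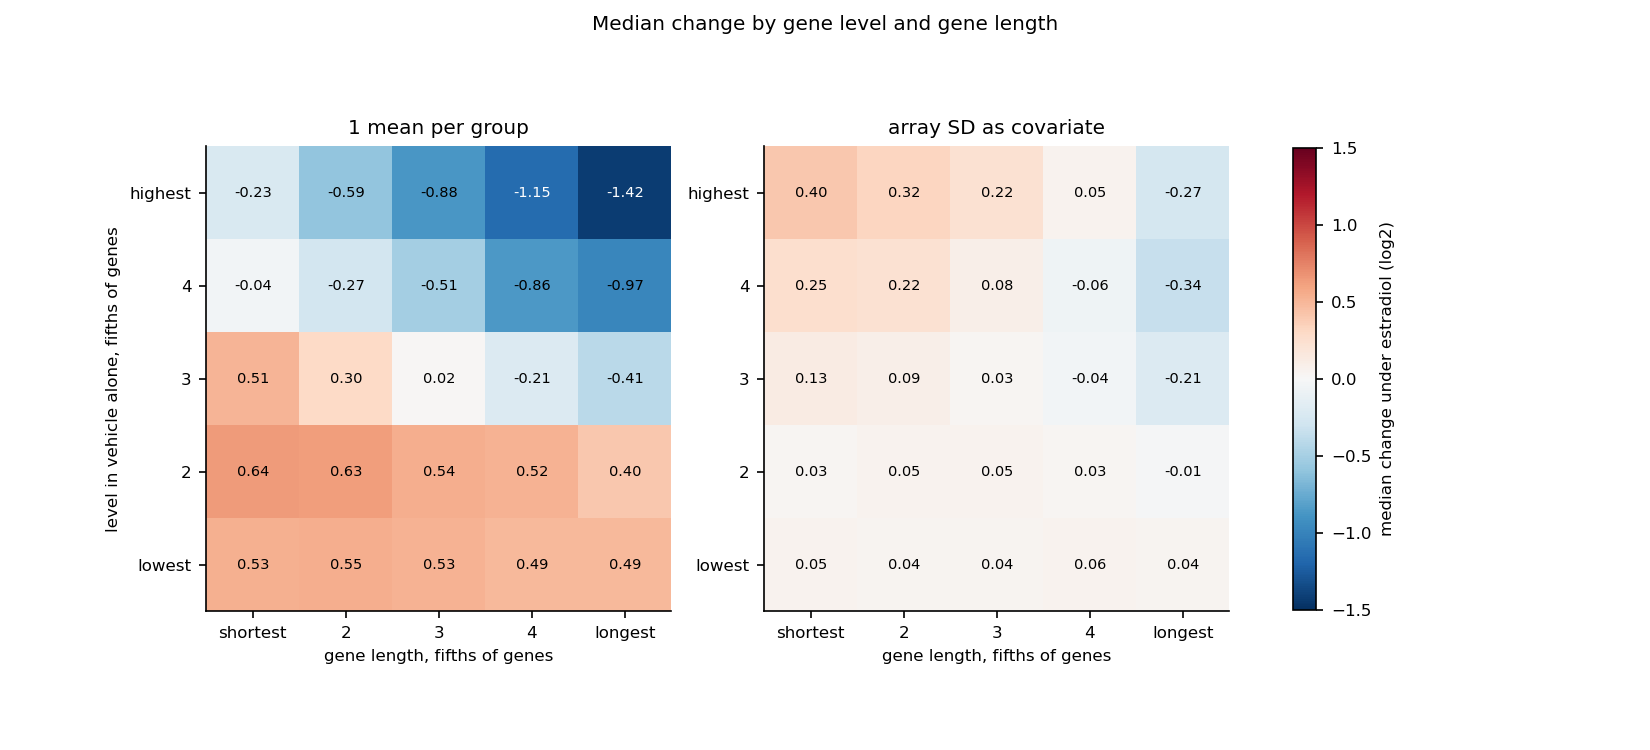
Median change under estradiol (log2, with astrocytes minus alone) in 25 classes of genes by level in vehicle alone (rows, 5 classes) and RefSeq gene length (columns, 5 classes), as 1 mean per group (left) and in the SD-adjusted fit (right). In the top row the median falls from −0.23 to −1.42 on the left and from 0.40 to −0.27 on the right as genes get longer.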

How the data were processed

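The authors deposited log2 values of 33297 probe sets for 12 arrays. Per the submitters' processing notes RMA and Partek were used, with versions and order not given in the sources used here. RMA corrects background, normalizes quantiles and summarises probes. Probe sets with 1 gene symbol (19181) were kept, and the one with the highest mean stood for each of 17958 genes, without a filter on low signal. The comparisons used limma (version 3.58.1, R 4.3.3) with 1 mean per group over 12 arrays (8 residual degrees of freedom), two-sided, with Benjamini-Hochberg adjustment across the 17958 genes and a threshold of 0.05. The SD-adjusted fit adds each array's SD to this model. With 3 arrays in each group, the smallest p an exact permutation test allows is 0.1. The fit was tested on simulated data with independent noise. No simulated array had a narrower range of signal, so that test does not cover this feature of the data. Gene names, positions, lengths and sequences came from RefSeq (GRCh38.p14), with a length for 17933 genes and a mature sequence for 171 of 180 microRNA genes. The number of arrays limits the precision, since arrays have no depth.

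Named were the 15 rises and 15 falls with the smallest p in both fits, up to 6 members per list with the smallest p, fixed members of the lists, and up to 5 microRNA and snoRNA genes each. Further genes were chosen after their values were seen: MYC, SPRY1, H2BC4, H4C8, H1-2, CRELD2, PLEKHA5, HPSE, ACTL6B, SLIT2, HUWE1, HSPA8, NCL, MGC70870, H2AZ1, HSPE1, DNAJA1, ACTL6A, H3C7, MIR30A, MIR30B, MIR30C1, MIR30D, MIR222, MIRLET7C and MIRLET7F2. The groups compared and the 45 gene lists were chosen with earlier results of these data known. Alternatives were the replicate number as a block, the 6 arrays alone, other normalizations, filters and variance models, and each array left out. Leaving out array 2 of both astrocyte groups was added after seeing the data.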

Additional observations from a re-analysis of the deposited data

How the results depend on the processing

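Against 2366 genes, the count was 6691 with the replicate number as a block, 529 with quantile normalization, 469 in the SD-adjusted fit, 14777 with arrayWeights (whose fit gave a convergence warning) and 0 with the 6 arrays alone, where the smallest adjusted p was 0.0916 and 5353 genes had an unadjusted p under 0.05 in limma. Leaving out single arrays gave 3 to 9222. The interaction gave 648 genes with arrayWeights and 0 otherwise. Median centring, under which the median change over all genes is 0.153 in place of 0.066, gave 1308 higher and 1481 lower genes. Quantile normalization gave 210 and 319. Without array 2 of both astrocyte groups 706 were higher and 945 lower. Of the 2366 genes, 215 were also called in the SD-adjusted fit and 379 with quantile normalization. B2M turned from −1.02 to 0.82 in the SD-adjusted fit. With arrayWeights FLT1 turned to −0.16, NHP2 to 0.38 and NOP10 to 0.29. Of the 178 named genes that passed, all kept their direction in every setting that tested them, and 60 still passed in the SD-adjusted fit. With an array left out the direction was fixed in advance, since the arrays of these genes do not overlap. Same-number arrays of the estradiol groups deviated from their group means with r of 0.538, 0.485 and −0.016. The first 2 values were the highest of all pairings, and crossing arrays 1 and 2 gave −0.485 and −0.542. The labels do not say what the numbers mark, so they were not taken as pairs in the main fit. The count of 6691 shows how much that choice moves it. The cause of these differences between settings was not tested.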
